A study of Drosophila melanogaster with 18 samples.

Results

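The comparison described here set photoreceptor nuclei of Drosophila melanogaster that had received 8 h of blue light on day 5 of adult life against nuclei of untreated day 5 flies (D5). Its members were chosen by their labels alone and are 6 of the 18 samples of the series, 3 after 8 h of blue light and 3 at D5. The other samples were day 5 flies after 3 or 5 h of blue light and untreated flies of day 15 and day 30, with 3 samples in each group. They served to estimate the spread between replicates, and the 3 h and 5 h samples are also given where the time course bears on a gene.

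Flies of both groups were males of 1 transgenic line, with the genotype w1118, cn bw, Rh1-GFP-Msp300KASH line 3-1. The cn bw alleles remove eye pigment, so the eyes are white. The transgene puts a GFP-tagged nuclear membrane protein under the regulatory elements of ninaE, which encodes Rhodopsin 1 (Rh1) and is active in the outer photoreceptors R1–R6. Its insertion lies at the 5′ end of the Catalase gene, and every sample of the series carries it, so nothing here separates a response to light from a response that needs this insertion. Each sample pooled the nuclei of many flies, pulled down by the GFP tag. The 8 h flies were exposed during the light phase and frozen directly afterwards, and the D5 flies had no blue light. The hour of day at which D5 flies were frozen is not given in the sources used here.

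As background, light converts Rh1 to its active form metarhodopsin, which acts through a G protein and phospholipase C to open the TRP and TRPL channels and let calcium into the cell. In flies orange light turns metarhodopsin back to Rh1. Blue light alone therefore leaves most of the pigment active and the cell under a sustained calcium load, and white-eyed flies lack the screening pigment that would dim the light. Outer photoreceptors use histamine as transmitter and depend on glia for its recycling.

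Read pairs counted on genes ranged from 18.1 to 19.9 M per library after 8 h and from 16.7 to 18.9 M at D5. They made up 42.7% to 44.3% of all pairs at 8 h and 35.4% to 41.5% at D5, and mitochondrial transcripts took 0.0418% to 0.0897% of the counted pairs at 8 h and 0.0805% to 0.276% at D5. All levels below are cpm, counts scaled to a common library total with TMM factors, given in the order of replicates 1, 2 and 3. They are nuclear RNA levels, they are not divided by gene length, and they compare samples, not genes. The 8 h libraries ran on lane 2 together with the 3 h and 5 h libraries, and the D5 libraries ran on lane 3 with day 15. Lane and exposure therefore cannot be told apart in the comparison with D5, and the contrast of 8 h with the mean of 3 h and 5 h, which lies within lane 2 but asks another question, is given beside most of the genes named. One of 2 fitted factors of unwanted variation also separated the groups, at −1.65 to −0.711 in 8 h libraries and 0.207 to 0.840 in D5 libraries, so calls are read with and without the factors.

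The identity of the nuclei was checked first. Markers of R1–R6 (15 genes) summed to 69801–74178 cpm at 8 h and 62644–76530 cpm at D5, so the groups overlapped. That sum rested largely on a few abundant genes, such as norpA, trpl and rdgA. With the factors 0 of the 15 were called, 7 log2 fold changes were positive and 8 negative, and the median was −0.10. Without the factors 2 were called higher and 0 lower, and the median was 0.39. ninaE itself had 6157, 4777 and 5584 cpm after 8 h of blue light, against 6348, 4711 and 5235 cpm at D5. ninaE was likewise not apart between the groups (log2 fold change −0.21, SE 0.18, adjusted p 0.462), though within lane 2 it was lower at 8 h (log2 fold change −0.55, adjusted p 0.0403). Markers of other cell types were all detected, with 0 at zero in all 6 libraries, and several of their sums lay lower after blue light. Glial markers (18 genes) summed to 929–1002 cpm at 8 h against 1306–1501 cpm at D5. Markers of hemocytes and fat body (16 genes) summed to 953–1429 cpm at 8 h against 2303–3077 cpm at D5. Those of muscle (12 genes) summed to 1559–2203 cpm at 8 h against 2589–5007 cpm at D5, and those of pigment and cone cells (11 genes) to 324–386 cpm at 8 h against 462–499 cpm at D5. In the test described below, 1 of 17 glial markers rose and 5 fell, with a median log2 fold change of −0.67. Without the factors 0 rose and 8 fell, and the median was −0.73. The hemocyte and fat body sum rested largely on apolpp, with 1005, 635 and 563 cpm at 8 h, against 1572, 1742 and 2050 cpm at D5. Of 12 hemocyte and fat body markers tested, 0 rose and 3 fell, with 0 called without D5 replicate 3, 6 without D5 replicate 1, 5 without D5 replicate 2 and 10 lower without the factors. Of 9 muscle markers tested 0 were called, though all 9 log2 fold changes were negative (median −0.54). Without the factors 0 rose and 1 fell, and the median was −1.09. Among the 11 pigment and cone cell markers 1 rose and 1 fell, 5 log2 fold changes were positive and 6 negative, and the median was −0.15. Without the factors 2 rose and 4 fell, and the median was −0.69. R7 and R8 markers (8 genes) stood at 554–751 cpm after 8 h and 822–1092 cpm at D5. That sum rested largely on pros, with 512, 384 and 328 cpm at 8 h, against 540, 787 and 741 cpm at D5. Of the 7 members tested 0 were called, 2 log2 fold changes were positive and 5 negative, and the median was −0.16. Without the factors 0 rose and 1 fell, and the median was −0.43. Summed markers of other neurons (21 genes) overlapped, at 1915–2132 cpm at 8 h and 1833–2272 cpm at D5, but the sum rested largely on fru, with 918, 1105 and 1087 cpm at 8 h, against 500.1, 595 and 351 cpm at D5. Of the 21 members 19 had negative log2 fold changes, with a median of −0.47 (−0.78 without the factors), and 0 rose and 2 fell (11 without the factors). In bulk samples such as these, fewer nuclei of a type and less RNA per nucleus cannot be told apart.

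**Figure D1:**
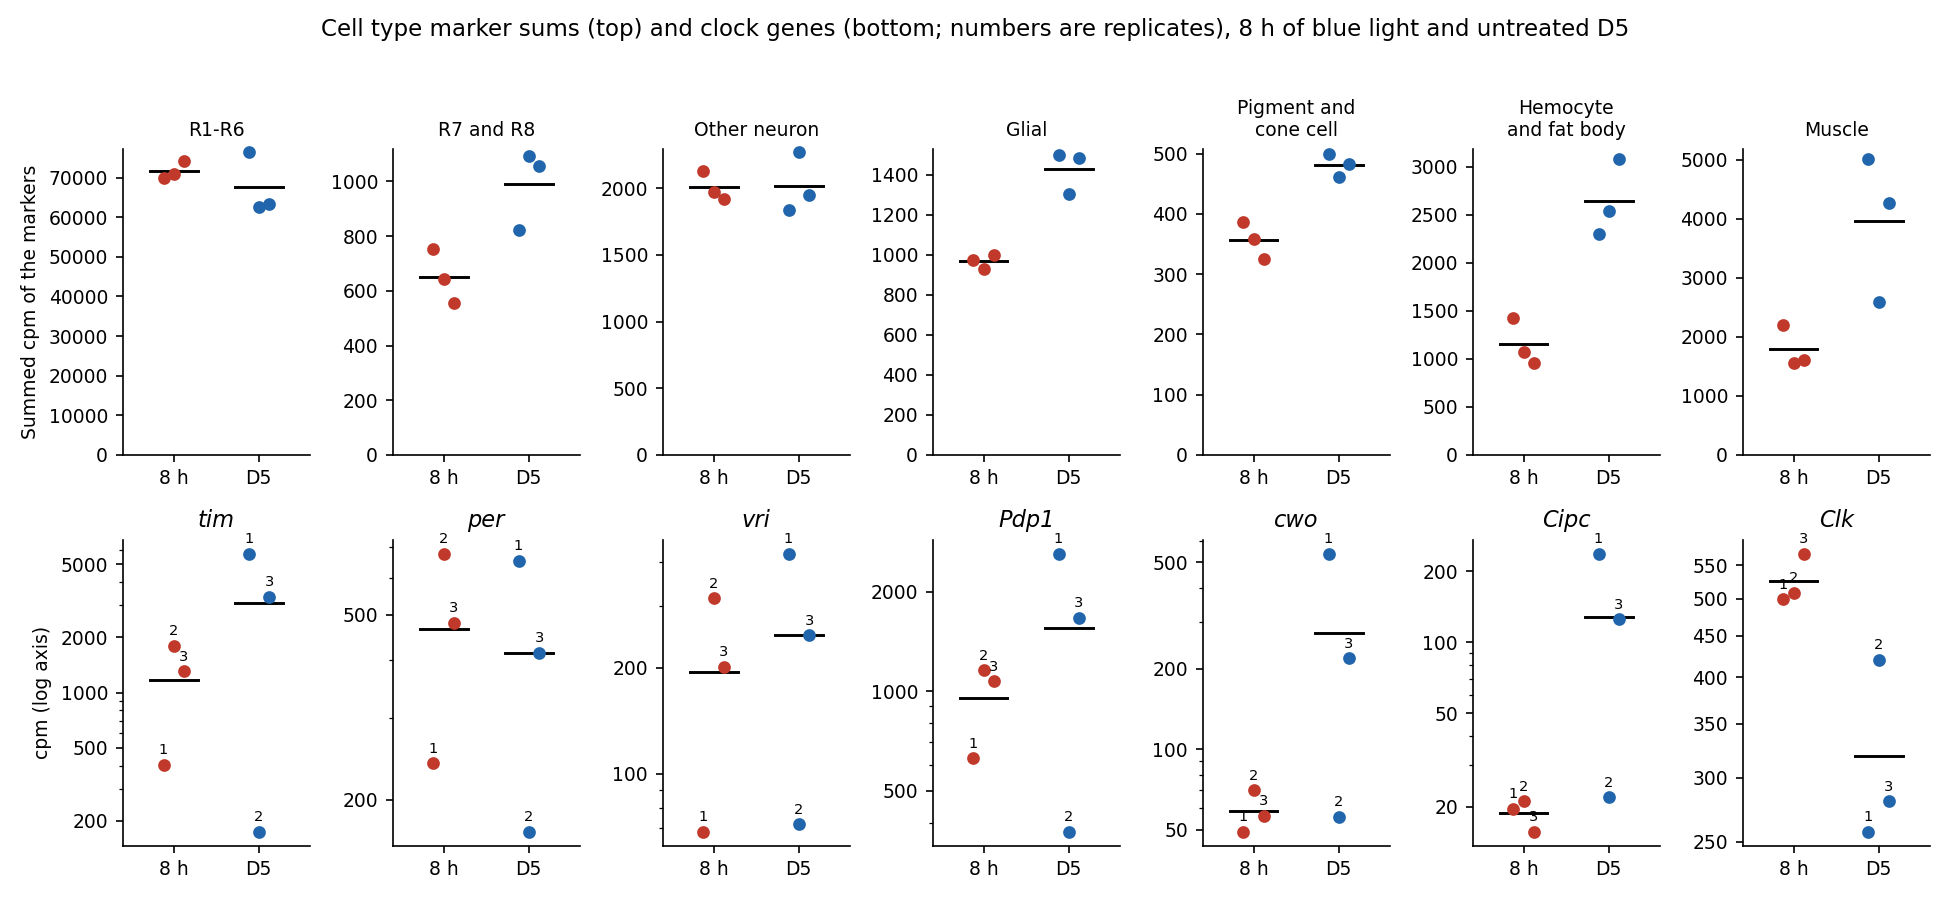
Top, the summed cpm of the markers of 7 cell types in each library (linear axis), with 8 h left of D5. Bottom, the cpm of 7 clock genes in each library (log axis), with the replicate number beside each point. The R1–R6 sums overlap while the glial, hemocyte and fat body, and muscle sums lie below those of D5, and tim, per, vri and Pdp1 spread widely within both groups.

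The transgene and its neighbours served as checks of the line. GFP was counted at 96.5, 83.9 and 52.7 cpm after 8 h of blue light, against 127, 119.5 and 153 cpm at D5. The 8 h libraries all lay below D5 but the difference did not pass the threshold (log2 fold change −1.30, SE 0.39, adjusted p 0.053). Msp300, which supplies the membrane domain of the tag and whose reads may include those of the transgene, had 4441, 4017 and 3860.03 cpm after 8 h of blue light, against 8927, 10607 and 10425 cpm at D5. All 8 h values lay under all D5 values (log2 fold change −0.999, SE 0.21, adjusted p 0.00938). Within lane 2 the same gene was not called at 8 h (log2 fold change −0.15, adjusted p 0.642), with means of 7151 cpm at 3 h and 4292 cpm at 5 h. Cat, the hydrogen peroxide scavenger next to the insertion, had 2597, 3049 and 3603 cpm after 8 h of blue light, against 2878, 6198 and 4112 cpm at D5. The groups overlapped in Cat (log2 fold change −0.87, SE 0.34, adjusted p 0.118), whereas 3 h and 5 h libraries averaged 12305 and 7998 cpm, so that Cat was lower at 8 h within lane 2 (log2 fold change −1.34, adjusted p 0.0115).

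Of 9427 genes with more than 10 counts in every sample, 857 (9.09%) differed between 8 h and D5 in the edgeR quasi-likelihood test at a Benjamini-Hochberg adjusted p under 0.05. Among them 435 (4.61%) rose and 422 (4.48%) fell. Their median log2 fold change was 0.92 for those that rose and −0.87 for those that fell. Changes beyond 2 on the log2 scale were seen in 18 genes that rose and 24 that fell. Without the factors 1799 genes (19.1%) were called, 734 (7.79%) higher and 1065 (11.3%) lower, so the share of higher calls was 40.8% there and 50.8% with the factors. Called both ways were 617 genes, 320 higher (3.39%) and 297 lower (3.15%), and 0 were called in opposite directions. Of the 857 calls, 344 (237 higher and 107 lower) also passed whichever of the 6 libraries was left out, and 286 of these passed without factors too. The 8 h libraries lay wholly above or below the D5 libraries for 815 of the 857 genes, against 50.3% of all tested genes. The contrast within lane 2 called 1251 genes (13.3%), 533 (5.65%) higher and 718 (7.62%) lower. In the text, a gene is said to have held when it passed in all 6 fits that left out a library, and a median is set against −0.03, the median of all tested genes.

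**Figure D2:**
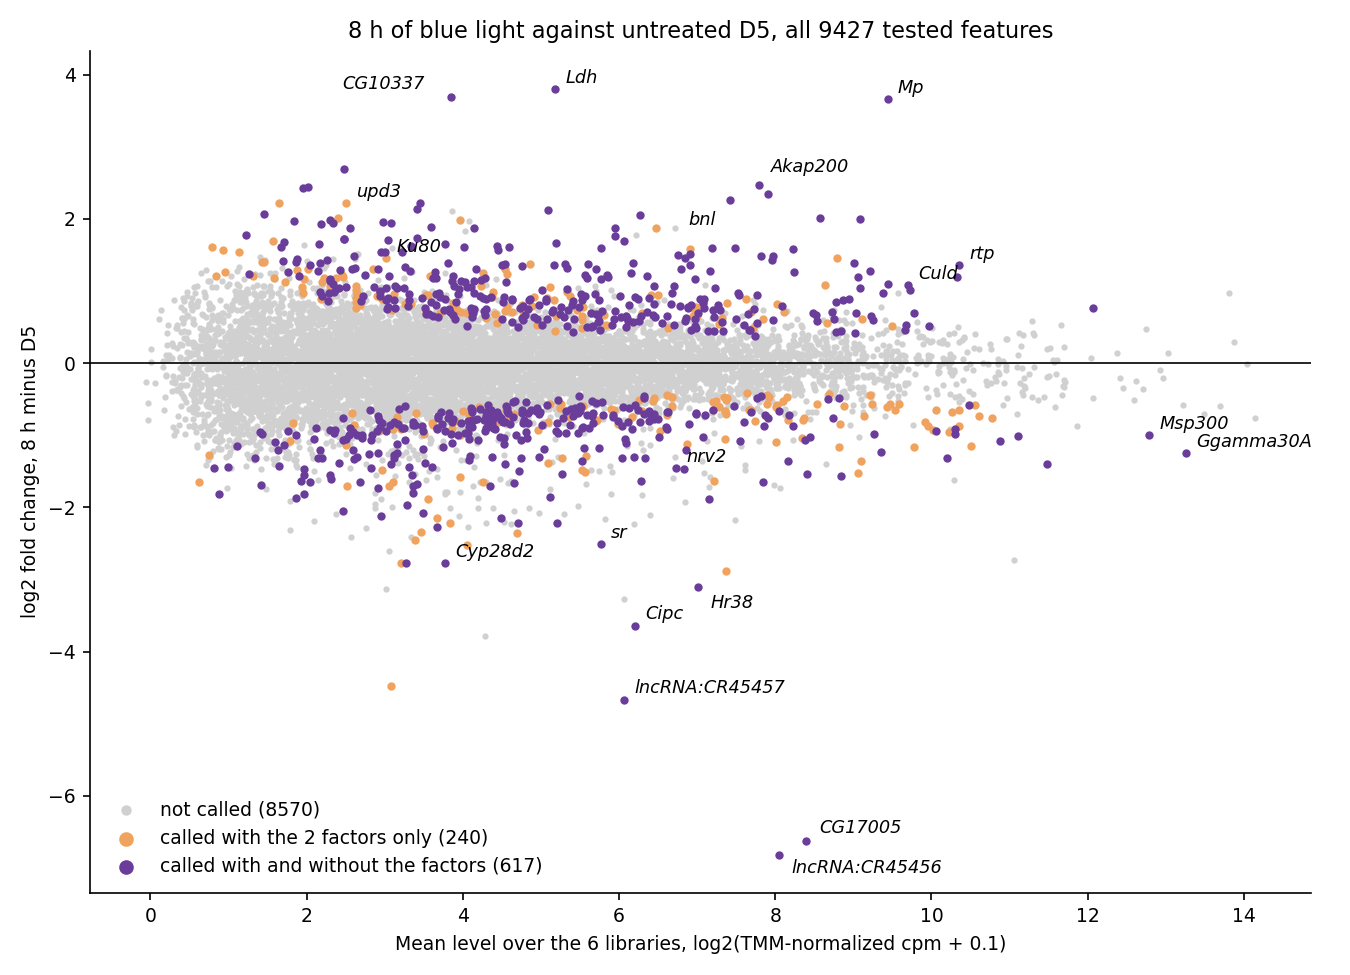
Log2 fold change of 8 h over D5 for the 9427 tested genes against log2 of the mean cpm plus 0.1. Colours mark genes not called, genes called with the factors only, and the 617 genes called with and without them; the called genes spread over the whole range of levels and to both sides of 0.

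The largest increases included a matrix collagen, a kinase anchor, secreted ligands and lactate dehydrogenase. Mp, which encodes the collagen Multiplexin (FBgn0260660, 3L, positions 6998843 to 7053499 of BDGP6.54), had 1771, 1169 and 887 cpm after 8 h of blue light, against 95.5, 133 and 108 cpm at D5. This 12.6-fold rise put even the lowest 8 h library far above the highest D5 library (log2 fold change 3.66, SE 0.27, adjusted p 7.48e-06). Its level was 191, 135 and 134 cpm at 3 h and 184, 135 and 114 cpm at 5 h, so within lane 2 the log2 fold change of 8 h was 3.49 (adjusted p 4.75e-06). Akap200, an anchor for protein kinase A (FBgn0027932, 2L, positions 8415690 to 8431297), followed the same course. It had 447, 366 and 292 cpm at 8 h, against 62.8, 71.3 and 89.03 cpm at D5, with means of 56.7 and 70.4 cpm at 3 h and 5 h (log2 fold change 2.47, SE 0.21, adjusted p 1.87e-05). Jhbp2, annotated as a juvenile hormone binding protein, likewise had 512, 389 and 318 cpm at 8 h, against 29.3, 107 and 84.2 cpm at D5 (log2 fold change 2.34, SE 0.44, adjusted p 0.00612), and 3 h and 5 h means were 59.5 and 90.5 cpm. The contrast within lane 2 gave log2 fold changes of 2.77 for Akap200 (adjusted p 3.89e-06) and 2.49 for Jhbp2 (adjusted p 0.00203). All 3 genes held, and all 3 stood near the D5 level until after 5 h. Mp and Akap200 each overlap genes on the other strand, and whether the authors counted by strand is not given in the sources used here.

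Ldh, which encodes lactate dehydrogenase (FBgn0001258, 3L, positions 6259105 to 6262694), had 84.2, 64.4 and 53.5 cpm after 8 h of blue light, against 6.95, 4.67 and 4.01 cpm at D5. Its fitted rise was the largest of all called genes (log2 fold change 3.80, SE 0.60, adjusted p 0.00215) and it held. Unlike Mp, it was already high earlier in the exposure, at 105, 52.1 and 98.3 cpm at 3 h and 387, 90.3 and 3.84 cpm at 5 h. The third 5 h library stood at the D5 level while the first was far above every 8 h library, and the log2 fold change within lane 2 was 1.98 (adjusted p 0.0433). CG10337, a gene of no assigned role that overlaps ref(2)P on the other strand, had 31.7, 20.9 and 26.5 cpm at 8 h, against 2.17, 2.62 and 1.70 cpm at D5 (log2 fold change 3.68, SE 0.37, adjusted p 6.63e-05). The overlapping ref(2)P, an autophagy receptor, stood at 139, 217 and 192 cpm at 8 h, against 68.9, 102 and 107 cpm at D5 and was not called (log2 fold change 1.08, SE 0.46, adjusted p 0.147).

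bnl, the fibroblast growth factor Branchless that guides tracheal branching (FBgn0014135, 3R, positions 19794073 to 19836817), had 332, 276 and 255 cpm after 8 h of blue light, against 58.8, 50.4 and 58.6 cpm at D5. It rose in all 3 libraries and held (log2 fold change 2.27, SE 0.29, adjusted p 0.000592), with means of 189 and 225 cpm at 3 h and 5 h. Its receptor gene btl had 2.85, 3.20 and 3.28 cpm at 8 h, against 7.69, 11.7 and 9.29 cpm at D5. The receptor gene fell, with all 8 h libraries below D5 (log2 fold change −1.65, SE 0.26, adjusted p 0.00215), and it fell within lane 2 as well (log2 fold change −1.46, adjusted p 0.00186). btl overlaps another gene on the same strand, so its reads may be mixed with that gene's. upd3, a secreted ligand of the JAK/STAT pathway, had 10.1, 8.03 and 8.33 cpm at 8 h, against 1.82, 2.96 and 2.31 cpm at D5. It was higher in every 8 h library (log2 fold change 2.22, SE 0.25, adjusted p 0.000225) but missed the threshold without the factors (adjusted p 0.064, with 4.61e-11 to 0.0741 over all its alternatives), and its 5 h libraries spread over 30.7, 5.28 and 1.25 cpm. The contrast within lane 2 gave 1.77 for bnl (adjusted p 0.00171) and 1.82 for upd3 (adjusted p 0.000537). btl was picked after its values were seen.

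Among the remaining large increases, gwl, the mitotic kinase Greatwall, had 7.81, 5.28 and 4.53 cpm at 8 h, against 1.14, 2.79 and 1.18 cpm at D5. Its 8 h libraries all lay above D5 and it held (log2 fold change 2.43, SE 0.46, adjusted p 0.00626). Some genes of higher level that fell outside the 12 largest were picked after their values were seen. IRSp53, an adaptor between membranes and actin, had 688, 913 and 975 cpm at 8 h, against 234, 225 and 209 cpm at D5 (log2 fold change 1.996, SE 0.18, adjusted p 3.87e-05). jus, named for the seizures of its mutants, had 571, 657 and 659 cpm at 8 h, against 138, 131 and 137 cpm at D5 (log2 fold change 2.01, SE 0.19, adjusted p 5.44e-05). These 2 genes were high throughout the exposure, with 3 h and 5 h means of 636 and 679 cpm for IRSp53 and 542 and 548 cpm for jus. Dus1, named as a tRNA dihydrouridine synthase, followed a course like that of Mp, with 112, 95.7 and 91.9 cpm at 8 h, against 20.2, 28.1 and 23.6 cpm at D5 and means of 32.9 and 38.2 cpm at 3 h and 5 h (log2 fold change 1.87, SE 0.19, adjusted p 6.63e-05). Jhbp5, another gene of the juvenile hormone binding family, had 9.85, 7.41 and 7.92 cpm at 8 h, against 3.02, 2.73 and 2.03 cpm at D5 (log2 fold change 1.72, SE 0.28, adjusted p 0.00243). The related Jhbp1 had 30.4, 26.2 and 27.1 cpm at 8 h, against 21.5, 16.4 and 20.5 cpm at D5 (log2 fold change 0.77, SE 0.19, adjusted p 0.0227). All 3 family members named here rose and held, though Jhbp1 was at an adjusted p of 0.096 without factors (0.00078 to 0.124 over its alternatives). The log2 fold changes within lane 2 were 2.32 for gwl (adjusted p 0.00444), 0.48 for IRSp53 (adjusted p 0.074), 0.71 for jus (adjusted p 0.0225), 1.79 for Dus1 (adjusted p 8.89e-05), 1.804 for Jhbp5 (adjusted p 0.000934) and 0.41 for Jhbp1 (adjusted p 0.144).

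**Figure D3:**
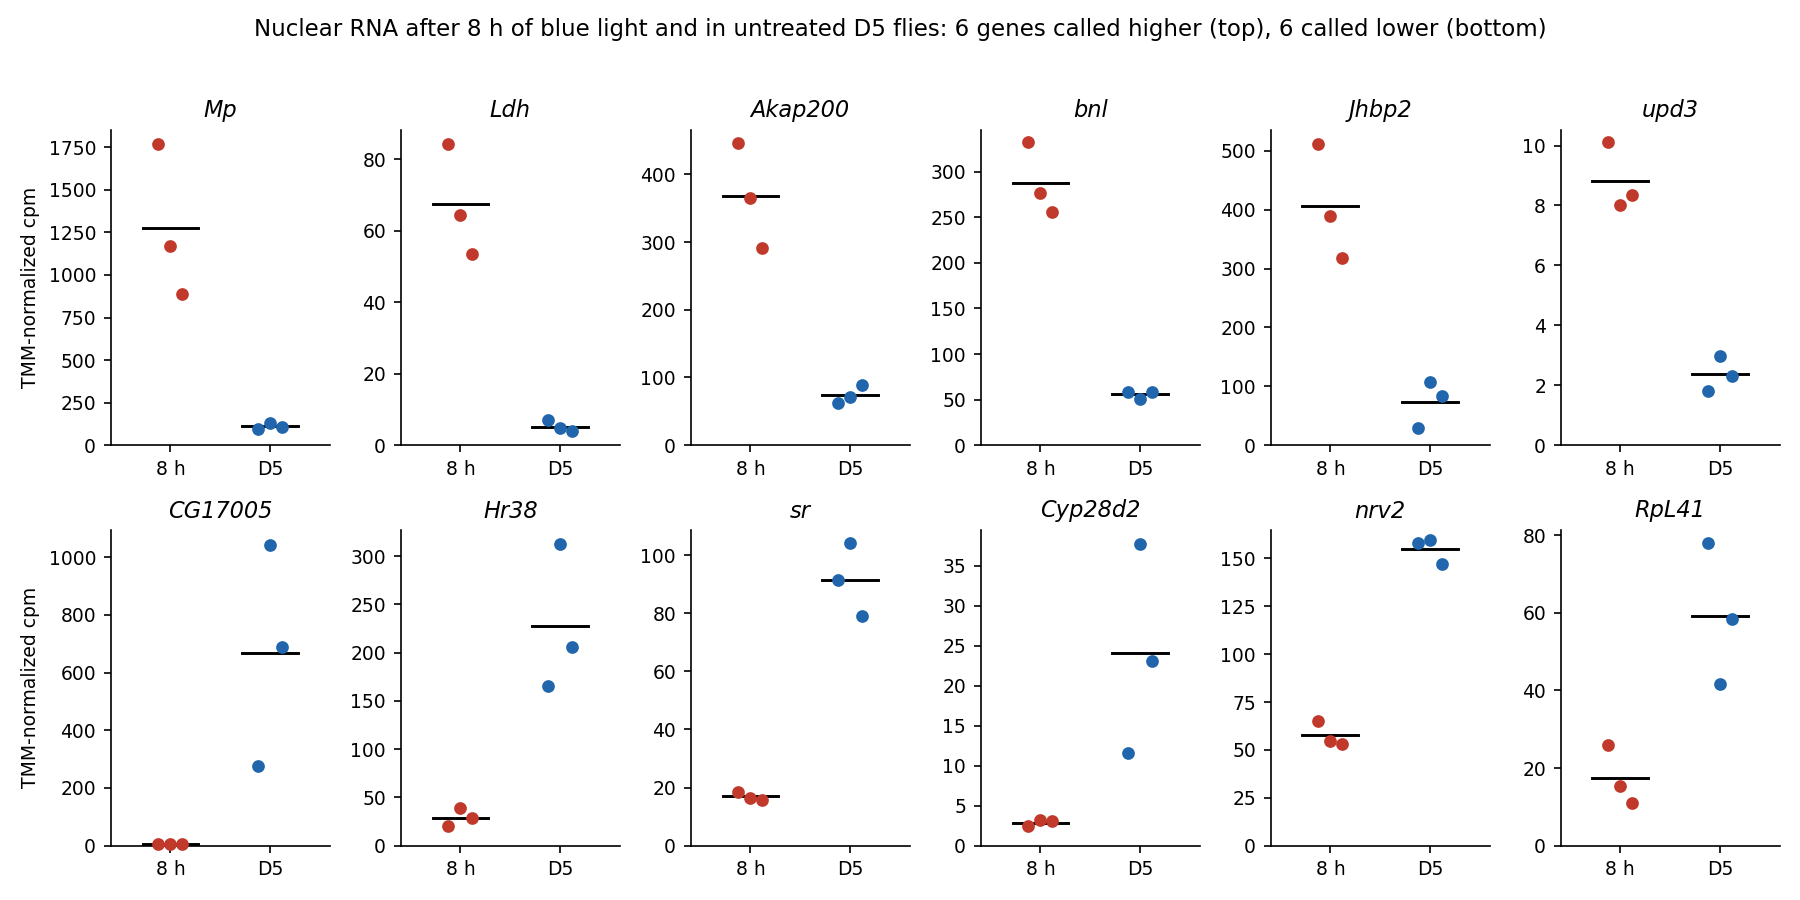
Level in cpm (linear axis from 0, 1 panel per gene) of 6 genes that rose and 6 that fell, with each library as a point, 8 h left of D5, and bars for the means of 3 libraries. In each panel the 8 h points and the D5 points do not overlap.

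The steepest falls came from 1 short stretch of chromosome 2L. CG17005, a protein-coding gene of no assigned role (FBgn0032109, 2L, positions 9327744 to 9330332), had 4.95, 6.46 and 5.99 cpm after 8 h of blue light, against 277, 1043 and 688 cpm at D5. The 8 h libraries were close to each other and far under the lowest D5 library (log2 fold change −6.63, SE 0.80, adjusted p 0.000351). In the other exposed libraries the gene stood at 3957, 3231 and 5447 cpm at 3 h and 2956, 598 and 7.68 cpm at 5 h. It was thus above D5 at 3 h and near the 8 h level in the third 5 h library, with a log2 fold change within lane 2 of −5.05 (adjusted p 0.00166). The noncoding genes beside it on the same strand moved with it. lncRNA:CR45456 (2L, positions 9325845 to 9326721) had 3.77, 3.31 and 3.54 cpm at 8 h, against 204, 895 and 478 cpm at D5 (log2 fold change −6.82, SE 0.78, adjusted p 0.000225). lncRNA:CR45457 (2L, positions 9327039 to 9327553) had 0.646, 5.73 and 5.99 cpm at 8 h, against 62.9, 195 and 132 cpm at D5 (log2 fold change −4.67, SE 0.80, adjusted p 0.00322). Within lane 2 the noncoding genes had log2 fold changes of −4.89 for lncRNA:CR45456 (adjusted p 0.00146) and −3.30 for lncRNA:CR45457 (adjusted p 0.0145). All 3 genes of the stretch held and were also called without the factors.

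2 transcription factors that neuronal activity is known to induce also fell. Hr38, the fly NR4A nuclear receptor, had 19.9, 38.8 and 28.3 cpm after 8 h of blue light, against 165, 312 and 206 cpm at D5. Every 8 h library lay below every D5 library (log2 fold change −3.10, SE 0.49, adjusted p 0.00215), while the levels were 525, 421 and 696 cpm at 3 h and 1026, 338 and 16.5 cpm at 5 h. sr, the fly member of the EGR family, had 18.6, 16.4 and 15.8 cpm after 8 h of blue light, against 91.5, 104 and 78.9 cpm at D5. Its groups were also fully apart (log2 fold change −2.51, SE 0.19, adjusted p 7.48e-06), and the levels were 76.4, 71.4 and 92.9 cpm at 3 h and 70.3, 31.9 and 10.1 cpm at 5 h. Both genes held, and in both the third 5 h library stood below all 8 h libraries while the first was well above them. Their log2 fold changes within lane 2 were −1.77 for Hr38 (adjusted p 0.0303) and −0.60 for sr (adjusted p 0.0459). Cyp28d2, a cytochrome P450 gene that begins just past Msp300 on the same strand, had 2.42, 3.20 and 3.07 cpm at 8 h, against 11.6, 37.7 and 23.2 cpm at D5 (log2 fold change −2.78, SE 0.51, adjusted p 0.00516), and like Msp300 it was not called within lane 2 (log2 fold change −0.65, adjusted p 0.39). Cubn, which encodes the endocytic receptor cubilin and was picked after its values were seen, had 49.95, 97.7 and 82.4 cpm at 8 h, against 247, 187 and 188 cpm at D5 (log2 fold change −1.88, SE 0.23, adjusted p 0.000355). It had averaged 768 cpm at 3 h and 269 cpm at 5 h.

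**Figure D4:**
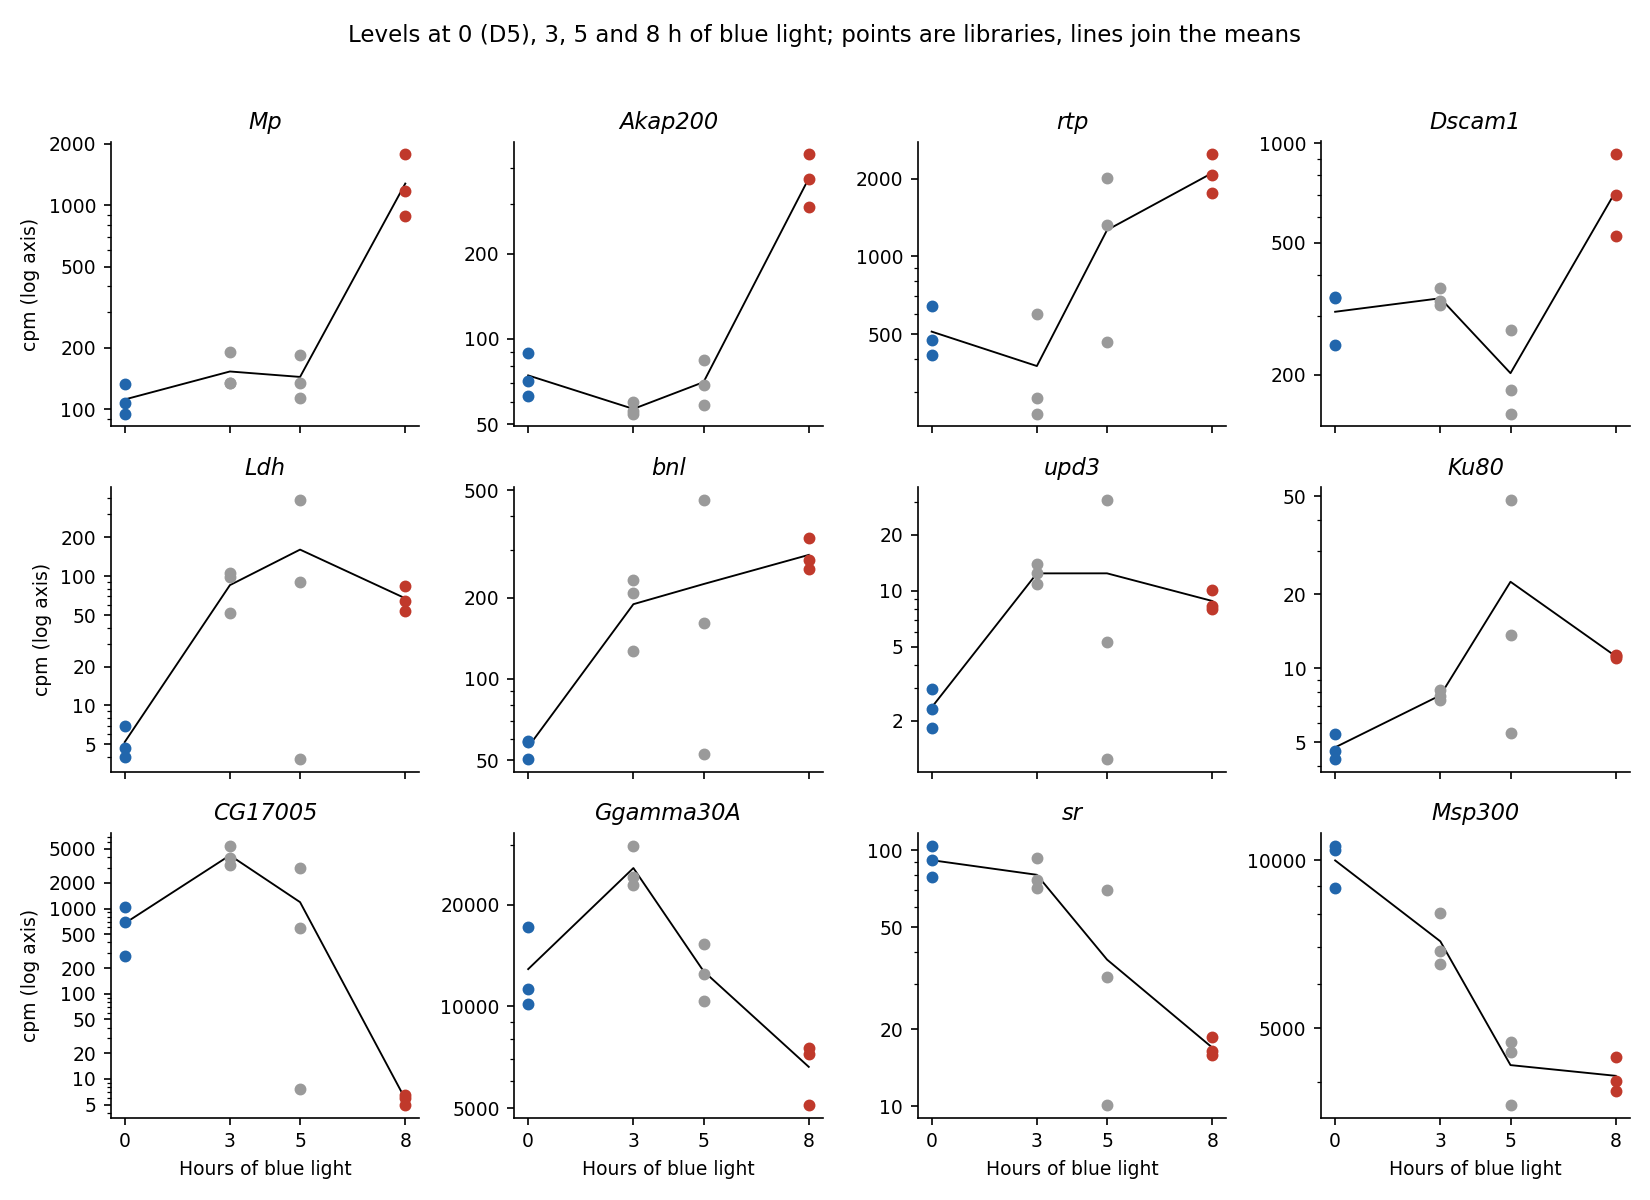
Level in cpm (log axis, 1 panel per gene) of 12 genes at 0, 3, 5 and 8 h of blue light, where 0 h is D5. Points are libraries and lines join the means of 3 libraries; Mp and Akap200 stay near the D5 level until 5 h, Ldh and bnl are up from 3 h, and CG17005 is highest at 3 h and lowest at 8 h, with 5 h libraries far apart.

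Of 24 phototransduction genes tested, 0 rose and 2 fell (8.33% called, near the 9.09% of all genes), with a median log2 fold change of −0.14. That median changed sign to 0.28 without the factors and was also positive with 1 factor, with other filters and in fits of fewer samples, so its sign depends on the fit. Ggamma30A, the gamma subunit of the G protein that Rh1 activates, had 5108, 7221 and 7534 cpm after 8 h of blue light, against 10175, 17229 and 11300.1 cpm at D5. The groups did not overlap (log2 fold change −1.24, SE 0.25, adjusted p 0.00864), and the gene was at 25716 and 12723 cpm at 3 h and 5 h. Cam, which encodes calmodulin, the calcium sensor of the cascade, had 1057, 1386 and 1237 cpm at 8 h, against 1727, 3792 and 2085 cpm at D5 (log2 fold change −1.08, SE 0.28, adjusted p 0.0272). Neither call held. For Ggamma30A the exception was adjusted p 0.066 without 8 h replicate 1 (3.16e-05 to 0.066 over all its alternatives). For Cam it was adjusted p 0.124 without 8 h replicate 1, 0.0589 without 8 h replicate 2 and 0.0578 without 8 h replicate 3 (0.00045 to 0.124 over all its alternatives). The contrast of 8 h with 3 h and 5 h gave −1.35 for Ggamma30A (adjusted p 0.00235) and −0.95 for Cam (adjusted p 0.0246). norpA, the phospholipase C of the cascade, had 10055, 11224 and 11815 cpm at 8 h, against 14695, 10761 and 10584 cpm at D5 and was not called (log2 fold change −0.71, SE 0.22, adjusted p 0.0522).

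Of 15 genes of light response termination, 2 rose and 0 fell (13.3% called), with a median of 0.21. Within lane 2 the list had 1 member called higher and 2 lower, with a median of −0.02. rtp, the rhabdomere protein retinophilin that stabilises the NINAC complex, had 1764, 2062 and 2479 cpm after 8 h of blue light, against 641, 417 and 477 cpm at D5. It rose and held (log2 fold change 1.36, SE 0.24, adjusted p 0.00402), after means of 376 cpm at 3 h and 1264 cpm at 5 h. Culd, which takes part in the endocytic traffic of Rh1 and TRPL, had 1272, 1053 and 1186 cpm after 8 h of blue light, against 536, 500.1 and 426 cpm at D5 (log2 fold change 1.08, SE 0.17, adjusted p 0.00183). It held too and stood in between earlier, at 615 and 885 cpm. rtp overlaps Mms19 on the other strand. Among 20 genes of chromophore and eye pigment 1 was called (5.0%, below the 9.09% of all genes). The call was st, the scarlet subunit of the pigment precursor transporter, with 28.3, 22.7 and 26.9 cpm at 8 h, against 10.03, 11.5 and 12.4 cpm at D5 (log2 fold change 1.16, SE 0.20, adjusted p 0.00324). Of 9 genes of the histamine cycle 2 rose and 2 fell (44.4% called). e, the ebony enzyme with which glia conjugate histamine, had 18.7, 14.7 and 15.4 cpm at 8 h, against 34.4, 39.5 and 44.6 cpm at D5 and was the 1 member that held (log2 fold change −0.96, SE 0.20, adjusted p 0.0101). The log2 fold changes within lane 2 were 0.53 for rtp (adjusted p 0.128), 0.66 for Culd (adjusted p 0.0144), 0.56 for st (adjusted p 0.0578) and −0.72 for e (adjusted p 0.0221). The ebony gene is also in the glial marker list, whose sum was lower in the same libraries, and the part of that difference in its level was not tested.

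The core circadian genes varied widely within each group. tim had 404, 1800.1 and 1304 cpm after 8 h of blue light, against 5708, 174 and 3334 cpm at D5. per had 239.6, 677 and 481 cpm after 8 h of blue light, against 654, 171 and 414 cpm at D5. D5 replicate 2 and 8 h replicate 1 were the low libraries of their groups in both genes. The same held for vri, a repressor of Clk, at 68.3, 316 and 202 cpm at 8 h, against 424, 71.7 and 248 cpm at D5, and for Pdp1, its activator, at 627, 1158 and 1071 cpm at 8 h, against 2613, 375 and 1671 cpm at D5. None of these passed (log2 fold change −2.73, SE 0.95, adjusted p 0.0823 for tim). Clk ran against them at D5, where replicate 2 was highest, and had 499, 509 and 569 cpm at 8 h, against 257, 420.02 and 281 cpm at D5 (log2 fold change 0.65, SE 0.48, adjusted p 0.408). Of 16 clock genes tested, 0 rose and 2 fell (12.5% called, against 9.09% of all genes), and neither held. cwo, a transcriptional repressor in the clock, had 49.04, 70.1 and 56.4 cpm at 8 h, against 539, 55.8 and 218 cpm at D5 (log2 fold change −2.89, SE 0.75, adjusted p 0.0267), with D5 replicate 2 inside the 8 h range. Its call was lost at adjusted p 0.0613 without 8 h replicate 3 and 0.097 without D5 replicate 1 (0.00182 to 0.101 over all its alternatives). Without 8 h replicate 1 and D5 replicate 2, a choice made after the data were seen, 793 genes were called in all, 444 higher and 349 lower. Cipc, a repressor of Clock that was among the largest falls and is not a member of that list, had 19.6, 21.2 and 15.7 cpm at 8 h, against 238, 22.03 and 126 cpm at D5 (log2 fold change −3.64, SE 0.84, adjusted p 0.0176), and there too D5 replicate 2 lay next to the 8 h libraries. Within lane 2 neither was called, at −1.57 for cwo (adjusted p 0.166) and −1.98 for Cipc (adjusted p 0.122).

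DNA repair genes lay on the higher side, in lists chosen with earlier results of these data known. The authors had already reported Xpac, Rrp1, rad50 and mre11 as raised after 8 h in the same libraries. Of 33 genes of excision and mismatch repair, 10 rose and 1 fell (33.3% called), with a median of 0.61, and 29 of 33 log2 fold changes were positive. 6 of those that rose held, among them Msh6, XRCC1, PolI, PolH and Rrp1, and 7 to 11 members were called when a library was left out. Msh6, which recognises mismatches, had 11.8, 11.1 and 10.7 cpm after 8 h of blue light, against 5.81, 7.23 and 6.13 cpm at D5 (log2 fold change 1.04, SE 0.20, adjusted p 0.0071). XRCC1, the scaffold of single-strand break repair, had 26.8, 26.05 and 28.5 cpm at 8 h, against 16.9, 12.2 and 14.6 cpm at D5 (log2 fold change 0.98, SE 0.21, adjusted p 0.0109). PolI, a translesion polymerase, had 48.3, 54.6 and 41.6 cpm at 8 h, against 22.2, 21.5 and 26.1 cpm at D5 (log2 fold change 0.88, SE 0.18, adjusted p 0.00979). In each of these 3 genes all 8 h libraries lay above D5. Without factors 7 members were called, 5 of which also passed with them. XRCC1, PolI and Rrp1 then missed, at adjusted p 0.0603, 0.0957 and 0.14, where their alternatives ran over 0.00038 to 0.0603, 0.000293 to 0.114 and 0.00234 to 0.14. In the contrast within lane 2 the log2 fold changes were 0.87 for Msh6 (adjusted p 0.009), 0.23 for XRCC1 (adjusted p 0.458) and 0.11 for PolI (adjusted p 0.712).

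Of 30 genes of double-strand break repair, 7 rose and 0 fell (23.3% called), with a median of 0.37. Only rad50 and Ku80 of these held, 4 to 7 members were called when a library was left out, and 1 of the 7 was called both with and without factors. Without factors the list had 3 members called higher and 2 lower. Ku80, which binds broken DNA ends, had 11.3, 11.3 and 11.04 cpm after 8 h of blue light, against 4.62, 4.27 and 5.42 cpm at D5 (log2 fold change 1.45, SE 0.26, adjusted p 0.0039). Its 5 h libraries stood at 48.3, 13.7 and 5.45 cpm. rad50, part of the complex that processes ends, had 29.4, 28.6 and 27.3 cpm at 8 h, against 17.3, 17.6 and 18.2 cpm at D5 (log2 fold change 0.72, SE 0.15, adjusted p 0.00914). mre11, its partner in that complex, had 10.3, 8.31 and 7.97 cpm at 8 h, against 6.10, 5.52 and 6.08 cpm at D5 (log2 fold change 0.93, SE 0.22, adjusted p 0.0191) and did not hold. It stood at adjusted p 0.0709 without 8 h replicate 1 (0.00561 to 0.209 over all its alternatives). Without factors the adjusted p was 0.0861 for Ku80 and 0.131 for rad50, within ranges over their alternatives of 2.15e-05 to 0.0861 and 0.000857 to 0.141. The fall within these lists was Parp1, which builds poly(ADP-ribose) at breaks, at 146, 148 and 166 cpm at 8 h, against 189, 175 and 162 cpm at D5, with overlapping groups (log2 fold change −0.66, SE 0.17, adjusted p 0.0272). Parp1 was lost at adjusted p 0.089 without 8 h replicate 1, 0.061 without 8 h replicate 2 and 0.0515 without D5 replicate 1 (0.00586 to 0.546 over all its alternatives), and at 0.513 without factors. Within lane 2 the log2 fold changes were 1.23 for Ku80 (adjusted p 0.00515), 0.23 for rad50 (adjusted p 0.29), 1.15 for mre11 (adjusted p 0.00354) and −0.72 for Parp1 (adjusted p 0.0103).

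**Figure D5:**
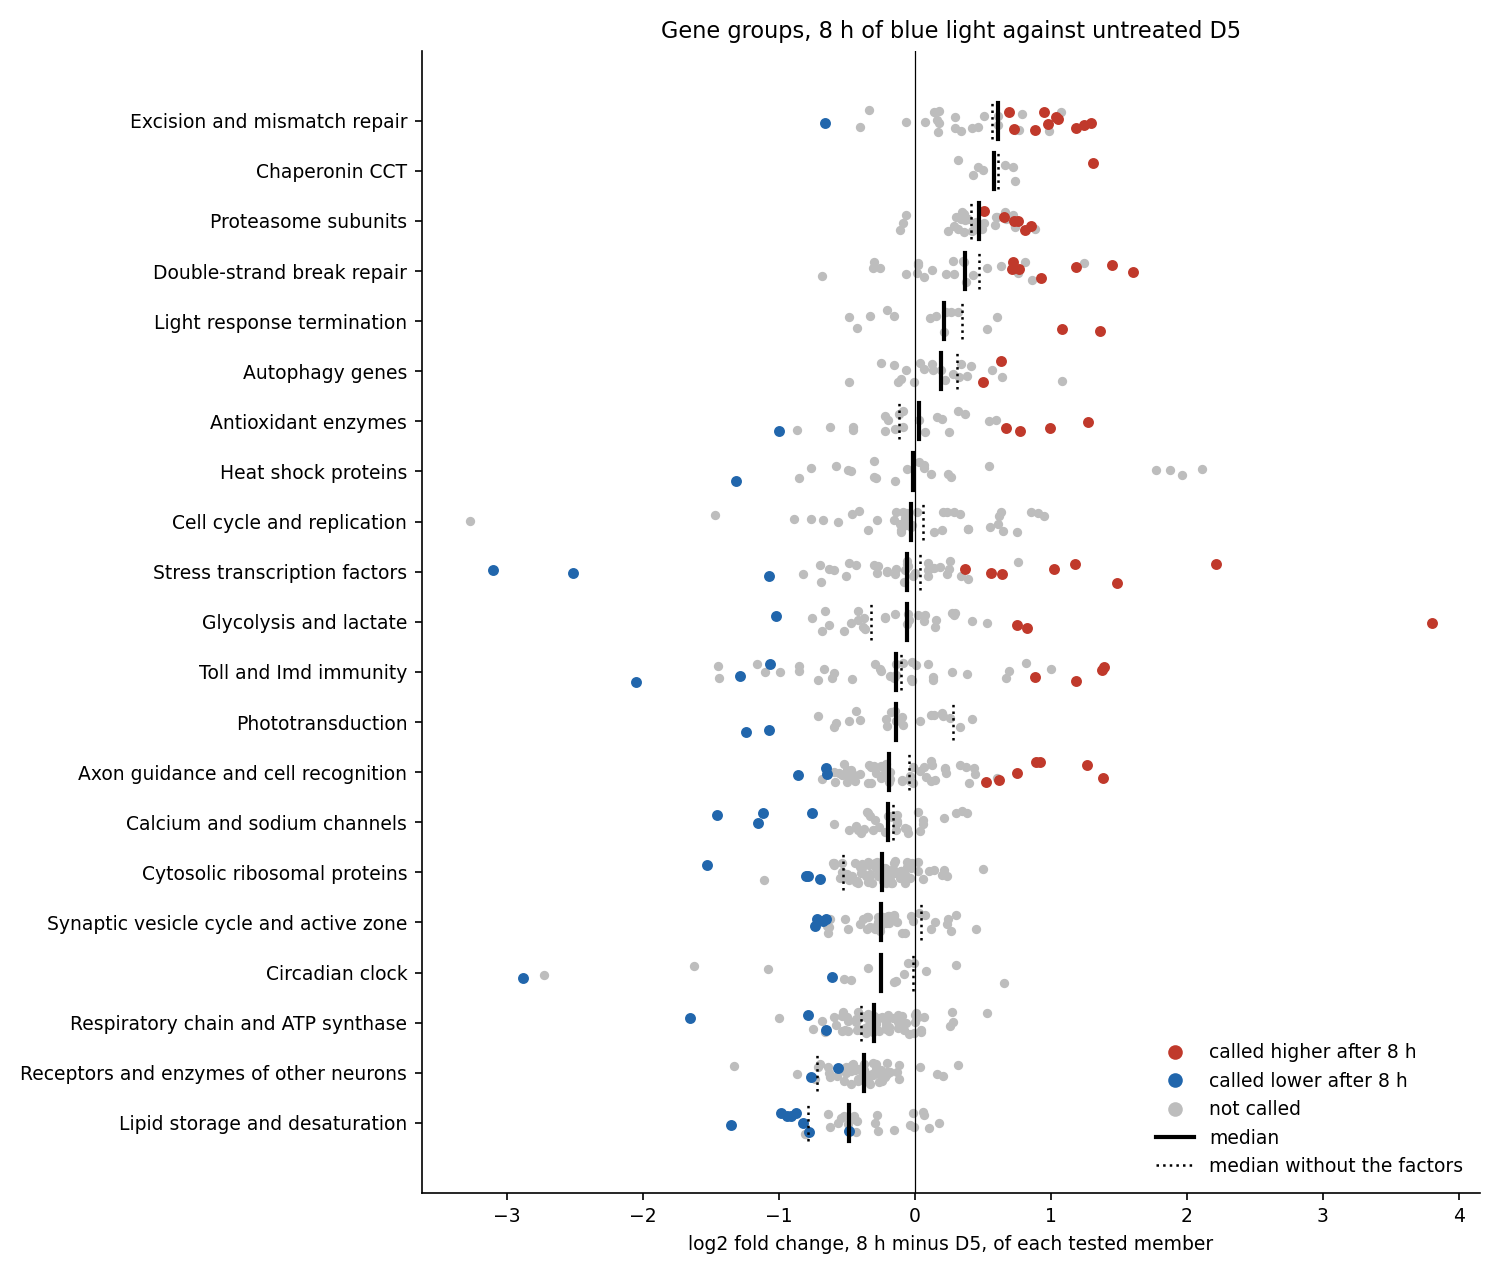
Log2 fold change of 8 h over D5 for the members of 21 gene lists, 1 point per tested gene. Solid marks give the median with the factors and dotted marks that without them; proteasome and excision repair genes lie mostly above 0, lipid genes and ribosomal protein genes mostly below, and the phototransduction median changes sign between the fits.

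Genes of protein turnover lay higher as well. Of 34 proteasome subunit genes, 6 rose and 0 fell (17.6% called), 31 of 34 log2 fold changes were positive and the median was 0.47. Rpn8 and Rpn2 held, and the number called was 2 to 8 when a library was left out. It was 3 without 8 h replicate 2, 2 without 8 h replicate 3 and 4 without D5 replicate 2. Rpn8, a subunit of the lid, had 34.9, 34.5 and 39.5 cpm after 8 h of blue light, against 19.8, 21.6 and 20.8 cpm at D5 (log2 fold change 0.75, SE 0.14, adjusted p 0.00607). Rpn2, a subunit of the base, had 88.5, 95.5 and 94.4 cpm at 8 h, against 59.96, 60.04 and 65.8 cpm at D5 (log2 fold change 0.65, SE 0.14, adjusted p 0.0123). CCT5, a subunit of the cytosolic chaperonin that folds actin and tubulin, had 64.1, 80.8 and 73.7 cpm at 8 h, against 16.9, 39.4 and 36.5 cpm at D5 (log2 fold change 1.31, SE 0.28, adjusted p 0.0109), and all 8 of the CCT genes had positive log2 fold changes with a median of 0.58. For Rpn8, Rpn2 and CCT5 the contrast within lane 2 gave 0.37 for Rpn8 (adjusted p 0.0751), 0.63 for Rpn2 (adjusted p 0.00791) and 0.93 for CCT5 (adjusted p 0.0309). Heat shock genes spread widely within both groups. Hsp26, a small heat shock protein, had 29.2, 204 and 117 cpm at 8 h, against 5.70, 63.3 and 28.9 cpm at D5 (log2 fold change 1.77, SE 1.29, adjusted p 0.401). Hsp68, of the Hsp70 family, had 33.9, 239.5 and 186 cpm at 8 h, against 9.40, 113 and 45.7 cpm at D5 (log2 fold change 1.88, SE 1.46, adjusted p 0.434). The small Hsp23 had 4.95, 36.9 and 26.4 cpm at 8 h, against 1.71, 10.8 and 5.99 cpm at D5 (log2 fold change 2.11, SE 1.65, adjusted p 0.437), and Hsp27 had 7.48, 42.2 and 26.2 cpm at 8 h, against 2.45, 15.8 and 6.84 cpm at D5 (log2 fold change 1.97, SE 1.59, adjusted p 0.45). In all 4, replicate 2 was the highest and replicate 1 the lowest in both groups, and the groups overlapped. These genes did pass in some alternatives, with adjusted p values of 0.00564 to 0.636 for Hsp26, 0.0449 to 0.675 for Hsp68, 0.032 to 0.639 for Hsp23 and 0.0182 to 0.815 for Hsp27. Hsp23, Hsp26 and Hsp27 passed in the fit of 12 samples. Of 22 heat shock genes 0 rose and 1 fell (4.55% called, below the 9.09% of all genes). Of their log2 fold changes 11 were positive and 11 negative, with a median of −0.02 (−0.42 within lane 2). The fall was Hsc70-1, with 17.8, 25.6 and 20.3 cpm at 8 h, against 31.2, 83.6 and 52.6 cpm at D5 (log2 fold change −1.32, SE 0.33, adjusted p 0.0234). It did not hold (adjusted p 0.0863 without 8 h replicate 1), and within lane 2 its log2 fold change was −1.44 (adjusted p 0.0079). Of 23 autophagy genes, 2 rose (8.7% called, near the share of all genes), and neither held. ref(2)P and the 4 heat shock genes were picked after their values were seen.

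Among 25 antioxidant genes, 4 rose and 1 fell, with a median of 0.03 (−0.12 without factors). Ho, the heme oxygenase that opens heme and frees its iron, had 14.2, 11.8 and 15.2 cpm after 8 h of blue light, against 6.16, 5.92 and 6.41 cpm at D5 (log2 fold change 1.27, SE 0.20, adjusted p 0.00189). Fer2LCH, a ferritin chain that stores iron, had 136, 151 and 151 cpm at 8 h, against 83.3, 92.5 and 94.1 cpm at D5 (log2 fold change 0.77, SE 0.16, adjusted p 0.0105). These 2 genes held. Gtpx, a glutathione peroxidase, had 47.9, 52.7 and 48.1 cpm at 8 h, against 27.7, 31.9 and 32.5 cpm at D5 (log2 fold change 0.99, SE 0.25, adjusted p 0.0233), and means of 167 and 133 cpm at 3 h and 5 h. Its call was lost at adjusted p 0.0529 without 8 h replicate 3 (0.000894 to 0.264 over all its alternatives). Of 25 glutathione transferase genes 1 was called (4.0%, below the 9.09% of all genes), and the median of 0.18 changed sign to −0.26 without factors. The call was GstO3, with 17.8, 18.5 and 17.03 cpm at 8 h, against 10.4, 12.3 and 11.4 cpm at D5 (log2 fold change 0.67, SE 0.14, adjusted p 0.0118), and it held. None of the 4 genes was called within lane 2, where the log2 fold changes were 0.37 for Ho (adjusted p 0.193), 0.04 for Fer2LCH (adjusted p 0.879), −0.24 for Gtpx (adjusted p 0.526) and 0.26 for GstO3 (adjusted p 0.217).

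Of 44 stress-responsive transcription factors and signalling genes, 7 rose and 3 fell (22.7% called), with a median of −0.06 (0.04 without factors). luna, a Krüppel-like factor, had 384, 333 and 233 cpm at 8 h, against 79.7, 182 and 140.5 cpm at D5 (log2 fold change 1.48, SE 0.31, adjusted p 0.0103). Dronc, the initiator caspase, had 14.4, 15.9 and 20.5 cpm at 8 h, against 9.01, 7.68 and 7.64 cpm at D5 (log2 fold change 1.17, SE 0.24, adjusted p 0.00864). p38a, a stress-activated kinase, had 22.2, 20.9 and 21.04 cpm at 8 h, against 12.5, 7.57 and 8.02 cpm at D5 (log2 fold change 1.02, SE 0.24, adjusted p 0.0196). The falls were Hr38 and sr, given above, and Mkp3, a phosphatase of the ERK kinase, at 130.2, 161 and 129 cpm at 8 h, against 193, 287 and 225 cpm at D5 (log2 fold change −1.08, SE 0.19, adjusted p 0.0039). All 4 of these genes held, as did Hr38 and sr, and within lane 2 their log2 fold changes were 2.096 for luna (adjusted p 0.000714), 0.72 for Dronc (adjusted p 0.046), 0.87 for p38a (adjusted p 0.026) and −0.40 for Mkp3 (adjusted p 0.137).

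Of 41 Toll and Imd immunity genes, 4 rose and 3 fell (17.1% called), with a median of −0.14. Without factors 5 rose and 12 fell, and 4 members were called without D5 replicate 3. Those that rose encode parts of the signalling chain. IKKbeta, the kinase of the Imd branch, had 21.7, 14.3 and 19.01 cpm after 8 h of blue light, against 9.46, 9.33 and 9.81 cpm at D5 (log2 fold change 1.39, SE 0.20, adjusted p 0.00138). Myd88, the adaptor of Toll, had 75.4, 46.6 and 37.6 cpm at 8 h, against 25.4, 25.4 and 26.7 cpm at D5 (log2 fold change 1.37, SE 0.28, adjusted p 0.00863). PGRP-LE, a sensor of bacterial peptidoglycan, had 17.4, 16.8 and 15.4 cpm at 8 h, against 8.04, 7.06 and 8.11 cpm at D5 (log2 fold change 1.18, SE 0.20, adjusted p 0.00305). These 3 held. Those that fell were Bomanin genes, which encode short secreted peptides downstream of Toll. BomS3 had 10.01, 8.76 and 7.08 cpm at 8 h, against 26.96, 24.1 and 25.04 cpm at D5 (log2 fold change −1.29, SE 0.28, adjusted p 0.0137) and held. BomS2 had 3.18, 1.12 and 1.25 cpm at 8 h, against 10.1, 7.51 and 9.34 cpm at D5 (log2 fold change −2.05, SE 0.51, adjusted p 0.0231). It was lost at adjusted p 0.0561 without 8 h replicate 2, 0.0598 without 8 h replicate 3 and 0.0534 without D5 replicate 3 (0.000907 to 0.0598 over all its alternatives). BomBc2 and BomT2, which lie beside these 2 genes on chromosome 2R and were picked after their values were seen, also fell (log2 fold change −1.67, SE 0.39, adjusted p 0.0181 for BomBc2 and log2 fold change −1.88, SE 0.55, adjusted p 0.044 for BomT2). BomBc2 was lost at adjusted p 0.0535 without D5 replicate 3 (0.000469 to 0.0535 over all its alternatives). BomT2 was lost at adjusted p 0.0942 without 8 h replicate 2, 0.0889 without 8 h replicate 3 and 0.146 without D5 replicate 3 (0.00396 to 0.146 over all its alternatives). The contrast within lane 2 gave log2 fold changes of 1.47 for IKKbeta (adjusted p 0.000537), 1.37 for Myd88 (adjusted p 0.00611), 0.81 for PGRP-LE (adjusted p 0.0137), −1.50 for BomS3 (adjusted p 0.00286), −1.69 for BomS2 (adjusted p 0.0337), −1.25 for BomBc2 (adjusted p 0.0368) and −0.47 for BomT2 (adjusted p 0.6). In all 4 neighbours every 8 h library lay below every D5 library. Fat body is a main source of Bomanins. The hemocyte and fat body marker sum, which rested largely on apolpp, was lower in the same 8 h libraries. The part of that difference in these values was not tested.

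Genes of lipid storage and synthesis lay lower. Of 31 tested, 0 rose and 8 fell (25.8% called), the median was −0.49, and 27 log2 fold changes were negative. Acsl, an acyl-CoA synthetase, had 209.99, 179 and 194 cpm after 8 h of blue light, against 507, 239 and 386 cpm at D5 (log2 fold change −1.36, SE 0.28, adjusted p 0.0105). Lpin, the phosphatase that makes diacylglycerol, had 965, 1178 and 1071 cpm at 8 h, against 1826, 1389.5 and 1384 cpm at D5 (log2 fold change −0.88, SE 0.16, adjusted p 0.00508). Cyt-b5-r, a cytochrome b5-related protein with a desaturase domain, had 60.1, 45.8 and 55.4 cpm at 8 h, against 116, 108 and 136 cpm at D5 (log2 fold change −0.78, SE 0.15, adjusted p 0.0065). These 3 held with the factors, though Lpin was at an adjusted p of 0.0994 without them (1.83e-05 to 0.157 over its alternatives). FASN1, a fatty acid synthase, had 928, 750.1 and 748 cpm at 8 h, against 1769.6, 1375 and 1973 cpm at D5 (log2 fold change −0.99, SE 0.23, adjusted p 0.0183) and was lost at adjusted p 0.0604 without D5 replicate 3 (0.00045 to 0.0604 over all its alternatives). The number called was 3 without D5 replicate 3, 4 without 8 h replicate 3, 5 without 8 h replicate 2 and 10 without D5 replicate 1. Fat body expresses many of these genes. Lsp2, a fat body storage protein and marker, had 17.7, 24.9 and 23.5 cpm at 8 h, against 45.4, 66.1 and 97.3 cpm at D5 (log2 fold change −1.36, SE 0.31, adjusted p 0.0155) and was lost at adjusted p 0.0676 without D5 replicate 3 (0.00042 to 0.091 over all its alternatives). For these 5 genes, log2 fold changes within lane 2 were −0.89 for Acsl (adjusted p 0.043), −0.87 for Lpin (adjusted p 0.00291), −0.42 for Cyt-b5-r (adjusted p 0.0607), −0.86 for FASN1 (adjusted p 0.0206) and −1.03 for Lsp2 (adjusted p 0.0299). apolpp, on which the hemocyte and fat body marker sum largely rested, is also in the lipid list and was 1 of its 8 falls. The part of the lower fat body marker sum in these values was not tested.

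In glycolysis and lactate metabolism 3 of 31 genes rose and 1 fell (12.9% called), with a median of −0.06. Gpo1, the mitochondrial glycerol-3-phosphate dehydrogenase, had 169.9, 165 and 133 cpm at 8 h, against 83.2, 99.1 and 101 cpm at D5 (log2 fold change 0.75, SE 0.14, adjusted p 0.0056) and held, though not without factors (adjusted p 0.0987, with 0.000248 to 0.116 over its alternatives). Pdk, which switches off pyruvate dehydrogenase, had 76.4, 87.96 and 78.6 cpm at 8 h, against 134, 246 and 189 cpm at D5 (log2 fold change −1.03, SE 0.25, adjusted p 0.0205). Pdk was lost at adjusted p 0.0607 without 8 h replicate 1 and 0.0599 without D5 replicate 3 (0.000108 to 0.0992 over all its alternatives). Of 84 cytosolic ribosomal protein genes, 0 rose and 4 fell (4.76%, near the 4.48% of all genes called lower), 75 log2 fold changes were negative and the median was −0.24 (−0.53 without factors). The number called was 9 without D5 replicate 2 and 2 without D5 replicate 3. Within lane 2, 0 of the 84 genes were called higher and 25 lower, with a median of −0.54. Of all genes 7.62% were called lower in that contrast. RpL41 and RpS29 held. RpL41, the shortest of these proteins, had 25.9, 15.4 and 11.04 cpm at 8 h, against 78.02, 41.5 and 58.4 cpm at D5 (log2 fold change −1.53, SE 0.31, adjusted p 0.00876). Of 72 genes of the respiratory chain 0 rose and 3 fell (4.17%, below the 4.48% of all genes), with a median of −0.30, and 0 of the 3 held. Within lane 2, 0 of the 72 were called higher and 19 lower, with a median of −0.46. rictor, the defining subunit of the TORC2 kinase complex, was the 1 increase among 36 insulin and Tor genes, at 213, 207 and 194 cpm at 8 h, against 112, 106 and 112 cpm at D5 (log2 fold change 0.74, SE 0.10, adjusted p 0.00124), and it held. 2 of the 36 genes fell, so 8.33% were called. In the contrast within lane 2 the log2 fold changes were 0.76 for Gpo1 (adjusted p 0.00286), −0.65 for Pdk (adjusted p 0.0754), −0.71 for RpL41 (adjusted p 0.12) and 0.69 for rictor (adjusted p 0.000834).

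Of 35 calcium and sodium channel and pump genes, 0 rose and 4 fell (11.4% called), and all 4 held. nrv2, a beta subunit of the sodium pump, had 65.03, 54.8 and 53.3 cpm after 8 h of blue light, against 158, 159.5 and 147 cpm at D5 (log2 fold change −1.46, SE 0.17, adjusted p 0.000302). nrv2 is likewise a glial marker here, and the part of the lower glial sum in its level was not tested. MCU, the calcium uniporter of mitochondria, had 16.3, 11.8 and 13.8 cpm at 8 h, against 30.6, 35.6 and 29.9 cpm at D5 (log2 fold change −1.12, SE 0.18, adjusted p 0.00218). Ca-alpha1D, the pore of an L-type calcium channel, had 978, 1123 and 1311 cpm at 8 h, against 2074, 1707 and 1540.3 cpm at D5 (log2 fold change −1.15, SE 0.19, adjusted p 0.00267). stj, an auxiliary subunit of calcium channels, was the fourth (log2 fold change −0.76, SE 0.14, adjusted p 0.00612). Without factors Ca-alpha1D was at an adjusted p of 0.0753 (1.18e-06 to 0.0946 over its alternatives) and stj at 0.128 (2.88e-05 to 0.277). The contrast within lane 2 gave −0.97 for nrv2 (adjusted p 0.00183), −1.20 for MCU (adjusted p 0.000774), −1.14 for Ca-alpha1D (adjusted p 0.00128) and −0.28 for stj (adjusted p 0.182). Of 45 genes of synaptic vesicles and active zones, 0 rose and 4 fell (8.89% called, near the 9.09% of all genes). None of these held, and the median of −0.25 for the list changed sign to 0.05 without the factors. Of 24 potassium channel genes 1 fell (4.17% called).

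Of 63 genes of axon guidance and cell recognition, 7 rose and 3 fell (15.9% called), with a median of −0.19. The balance turned with the fit, at 8 higher and 17 lower without factors and 11 higher and 1 lower within lane 2, and 5 members were called without D5 replicate 3. 5 of the 7 held (Dscam1, dock, ena, Fas2 and sli) and 0 of the 3. Dscam1, a highly spliced recognition receptor, had 926, 698 and 525 cpm after 8 h of blue light, against 245, 344 and 339.9 cpm at D5 (log2 fold change 1.39, SE 0.20, adjusted p 0.00133), and its log2 fold change within lane 2 was 1.91 (adjusted p 8.89e-05). dock, the adaptor that links Dscam1 to the cytoskeleton, had 432, 459 and 404 cpm at 8 h, against 111, 226 and 176 cpm at D5 (log2 fold change 1.27, SE 0.28, adjusted p 0.0126). ena, which extends actin filaments, had 86.8, 94.9 and 84.00 cpm at 8 h, against 52.9, 65.1 and 59.9 cpm at D5 (log2 fold change 0.92, SE 0.13, adjusted p 0.0011). Fas2, an adhesion molecule, had 189, 180.4 and 150.04 cpm at 8 h, against 85.3, 108 and 101 cpm at D5 (log2 fold change 0.89, SE 0.16, adjusted p 0.00508). In these 4 genes the groups did not overlap. Among 25 RNA splicing factors, 3 rose and 1 fell. Rbp9, an ELAV-family protein of neurons, had 926, 942 and 875 cpm at 8 h, against 455, 395 and 391 cpm at D5 (log2 fold change 0.98, SE 0.16, adjusted p 0.00215). hfp, a splicing regulator, had 568, 536 and 579 cpm at 8 h, against 275, 336 and 304 cpm at D5 (log2 fold change 0.61, SE 0.14, adjusted p 0.0164), and Hrb87F, an hnRNP protein, had 133, 111 and 95.7 cpm at 8 h, against 50.8, 67.5 and 65.2 cpm at D5 (log2 fold change 0.82, SE 0.20, adjusted p 0.0205). All 3 held and were also called without factors. Other log2 fold changes within lane 2 were 1.597 for dock (adjusted p 0.00157), 1.14 for ena (adjusted p 0.000127), 1.07 for Fas2 (adjusted p 0.000864), 0.53 for Rbp9 (adjusted p 0.0294), 0.13 for hfp (adjusted p 0.54) and 1.12 for Hrb87F (adjusted p 0.0018).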

How the data were processed

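RNA of immunoenriched R1–R6 nuclei was sequenced in paired reads after removal of ribosomal RNA. The authors trimmed the reads with Trimmomatic, aligned them to BDGP6.28 (dm6) with HISAT2 and deposited raw HTSeq counts of read pairs for 17811 features in 18 samples, without normalization. The processing notes name HTSeq 0.11.1, and the methods name another version. The strand setting of the counting is not given in the sources used here. Each column was matched to its sample by name, with 0 columns left over. Uncounted pairs stayed out of library sizes.

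The test covered features whose count exceeded 10 in each of the samples (9427, 52.93%). Counts were fitted in edgeR 4.0.16 (R 4.3.3) with TMM scaling, a mean per group over all 18 samples and 2 factors of unwanted variation, estimated by RUVs written anew. The contrasts were 8 h minus D5 and, from the same fit, 8 h minus the mean of 3 h and 5 h. The test was the quasi-likelihood F-test with Benjamini-Hochberg adjustment over all 9427 genes, and log2 fold changes and their standard errors (SE) come from this fit. The pipeline was tested on simulated data. Limma 3.58.1 and DESeq2 1.42.0 were also loaded, the second for an alternative Wald test, and tables were handled in Python 3.11.15 with pandas 2.3.3 and drawn with matplotlib 3.10.9. Ensembl gene models of BDGP6.54, newer than the authors' release, gave positions and named 17710 features.

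The comparison and the gene lists were chosen with earlier results of these data known. Genes were named by a rule: the 12 largest increases and decreases among called genes with non-overlapping groups, up to 4 members called in each direction per list (by smallest p), checks of the line, and defining markers. Genes picked after their values were seen are marked as such. The text gives a part of the 167 genes named in this way, of which 135 were called. No list was tested as a set. Alternatives were 0, 1 or 3 factors, 3 other filters, other scalings, DESeq2, fits of 6 or 12 samples, a replicate block and leaving out libraries. Those left out were each 8 h or D5 library in turn, 5 h replicate 1, and 8 h replicate 1 together with D5 replicate 2. The 3 h libraries and the other 5 h libraries were never left out. No resampling was done. Some genes that the rule names are not reported here, and sequences were not used.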

Additional observations from a re-analysis of the deposited data

How the results depend on the processing

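All 135 called genes among those named in the text or by its rule kept their direction under every alternative run in which they were tested. The counts moved more. Against 857 calls (435 higher, 422 lower), there were 1799 (734 and 1065) without factors, 3288 (1418 and 1870) with 1 factor, 1898 (1058 and 840) with cpm over 1 in 3 samples and 2245 (902 and 1343) without a filter. Fits of 6 samples without factors gave 3259 (1410 and 1849), fits of 12 samples with 2 factors 3856 (1682 and 2174), and DESeq2 called 636 lower. Upper-quartile scaling gave 587 higher and 306 lower (65.7% higher against 50.8%), and 67.6% of the calls were higher without D5 replicate 3. Leaving out 1 library gave 494 to 1100 calls, 304 to 523 higher and 160 to 577 lower, the upper ends without 5 h replicate 1, which was chosen after the data were seen. The fewest came without D5 replicate 3 (494), 8 h replicate 2 (530) and 8 h replicate 3 (573). Within lane 2, 1251 genes were called, against 2625 without factors, 2167 with 1 factor, 1949 without a filter, 2248 with 12 samples, 459 to 1697 without 1 library, and 741 without 8 h replicate 1 and D5 replicate 2, which was chosen after the data were seen. With cpm over 1 in 3 samples the median of all genes was 0.11, against −0.03.

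Same-numbered samples of 8 h and D5 correlated at 0.193, 0.144 and −0.160 in their deviations from the group means, so the numbers were not taken to pair the samples. A replicate block in the model left 729 calls (370 higher and 359 lower; 813 within lane 2), and 1889 without factors (746 and 1143; 2732 within lane 2). The block with factors also called Hsp26 and Hsp68.

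Of 17811 features, 17024 had a count in some sample and 9427 passed the filter and were tested. For the rest, low depth and absent expression were not told apart.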

Other observations

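Small nucleolar RNAs, which guide the chemical modification of ribosomal RNA, had mostly lower levels. Of 67 tested after 8 h of blue light, 0 rose and 11 fell (16.4%, against 4.48% of all genes called lower), and their median log2 fold change was −1.64. It was −1.29 without the factors, where 3 of the 11 were still called, and 0 of the 11 passed in every fit that left out a library. snoRNA:Psi28S-1175c, inside RpS16, had 4.84, 3.42 and 2.08 cpm after 8 h of blue light, against 25.02, 8.25 and 11.1 cpm at D5 (log2 fold change −2.77, SE 0.65, adjusted p 0.0183). It was lost at adjusted p 0.0593 without D5 replicate 1 (0.000369 to 0.0696 over all its alternatives). Its host RpS16 had 43.01, 43.2 and 53.8 cpm at 8 h, against 80.9, 53.7 and 67.8 cpm at D5 and was not called (log2 fold change −0.17, SE 0.22, adjusted p 0.638). snoRNA:Pi4KIIalpha-a had 6.03, 5.28 and 1.87 cpm at 8 h, against 23.2, 6.83 and 18.8 cpm at D5 (log2 fold change −2.46, SE 0.69, adjusted p 0.0386). It was lost at adjusted p 0.0669 without 8 h replicate 2, 0.0858 without 8 h replicate 3, 0.098 without D5 replicate 1 and 0.0942 without D5 replicate 3 (0.00324 to 0.098 over all its alternatives), while its host Pi4KIIalpha stood at 323, 312 and 310.1 cpm at 8 h, against 223, 216 and 203 cpm at D5. Both host genes were picked after their values were seen.

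Calls of lower level were more frequent among long genes. When the 8776 tested protein-coding genes were put in 5 equal bins by gene length, the bin of the longest (median length 22100 bases) had 8.89% called lower and 4.84% higher, with a median log2 fold change of −0.21. The bin of the shortest had 3.30% called lower and 3.02% higher, and the middle bin 2.39% and 5.98%. Noncoding antisense genes gave 6 higher and 1 lower call among 160 tested. The higher share of 3.75% lay below the 4.61% of all genes, and the lower share was 0.625% against 4.48%. Consecutive tested genes called in the same direction formed 82 runs of 2 or more genes on a chromosome, 11 of them with at least 3 genes. The longest was the group of 4 Bomanin genes on 2R. Untested genes in between were passed over, and overlapping genes were counted as neighbours. How many runs unrelated calls would form was not estimated.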
